A study of Mus musculus with 40 samples.

Results

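Immediate early genes are the first genes that a cell transcribes after a strong stimulus, and they need no newly made protein to be switched on. In neurons, synaptic activity and calcium entry act through kinases on factors that wait at the promoters, chiefly CREB at CRE sites and serum response factor (SRF) at CArG boxes. Their RNA lives for minutes, so in the striatum its level is widely read as a trace of recent neuronal activity, although astrocytes and vascular cells can also induce several of these genes.

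The 10 genes described here were taken by symbol from the 24060 gene rows of the count table. They were *Fos*, *Fosb*, *Fosl1* and *Junb*, which encode subunits of the AP-1 transcription factor, *Egr1*, *Egr2*, *Egr3* and *Egr4*, which encode zinc finger transcription factors, *Npas4*, a neuronal transcription factor of the bHLH-PAS family, and *Arc*, an effector that acts on AMPA receptors at synapses. All 10 were in the table. They were selected on values measured in these libraries, namely their levels in all groups, the fold changes of immunoprecipitated (IP) RNA over input and those of knockout over wild type, so every value of the 10 genes is given as a description with no test.

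RNA was sequenced from mouse striatum in 40 libraries, 4 in each of 10 groups. In the RiboTag method an adeno-associated virus (AAV) expresses a haemagglutinin-tagged ribosomal protein (RPL22-HA) in 1 cell type, the tagged ribosomes are purified from the lysate with their RNA (IP), and a part of the same lysate (input) holds RNA of all striatal cell types. Wild-type C57/BL6NTac mice, injected in the dorsal striatum as young adults, gave the Control input and Control IP libraries (taken as the astrocyte RiboTag with the GfaABC1D promoter) and the neuron input and neuron IP libraries (hSYN1 promoter). Another cohort, injected at a later age, gave input and IP libraries of C57/BL6J wild-type mice (SAPAP3 WT) and of C57/BL6J-Dlgap3 KO mice (SAPAP3 KO), which lack the postsynaptic scaffold SAPAP3 that the gene *Dlgap3* encodes. Bulk striatum of WT and KO mice was lysed without an IP, with the strain of both genotypes labelled C57/BL6NTac and 1 animal identifier given to a library of each genotype. The labels do not say which RiboTag virus the SAPAP3 cohort received. The promoter of the virus sets which cells were sampled, and the labels name no stimulus for any group.

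Total counts ranged from 23438112 to 84109800 per library. *Dlgap3* did not overlap between the genotypes in any material, with means in CPM (counts scaled to the same library total) of 333 in WT and 153 in KO bulk, 421 and 180.1 in input, and 175 and 65.5 in IP. The 10 astrocyte markers were higher in Control IP than in its input, by a median log2 fold change (log2(FC)) of 3.13, and by 2.24 and 2.39 in the SAPAP3 WT and KO IP. The 10 neuron markers had a median log2(FC) of 0.80 in neuron IP and of -0.83, -0.61 and -0.57 in the Control, SAPAP3 WT and SAPAP3 KO IP. The 10 oligodendrocyte markers had medians of 0.02, 0.85 and 0.93 in these same IP libraries and of -1.57 in neuron IP. The neuron markers were not removed from the Control and SAPAP3 IP libraries, in which their summed level was between 4000 and 5370 CPM, against 6752 to 7377 CPM in the matching inputs.

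Promoters of 6 of the 10 genes (*Egr2*, *Egr4*, *Fos*, *Fosb*, *Junb* and *Npas4*) were in the RefSeq promoter table for GRCm38.p6. The 250 bases before the transcription start are shown for 4 of them, *Egr2* because it differed most between the genotypes, *Fos* because its mean was above input in each IP, *Npas4* because it varied most between mice and *Egr4* because it went opposite ways in the neuron and Control IP. Capitals mark the CRE core TGACG on either strand, the CArG box of SRF, and TATAAA. The sequences are written 5′ to 3′ on the strand of the gene.
*Egr2*, chr10:67537619-67537868, plus strand: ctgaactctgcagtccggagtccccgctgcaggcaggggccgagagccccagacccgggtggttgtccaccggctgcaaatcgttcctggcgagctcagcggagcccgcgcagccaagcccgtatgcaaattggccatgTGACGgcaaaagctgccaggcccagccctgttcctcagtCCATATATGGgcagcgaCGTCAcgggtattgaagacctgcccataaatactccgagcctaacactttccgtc
*Fos*, chr12:85473640-85473889, plus strand: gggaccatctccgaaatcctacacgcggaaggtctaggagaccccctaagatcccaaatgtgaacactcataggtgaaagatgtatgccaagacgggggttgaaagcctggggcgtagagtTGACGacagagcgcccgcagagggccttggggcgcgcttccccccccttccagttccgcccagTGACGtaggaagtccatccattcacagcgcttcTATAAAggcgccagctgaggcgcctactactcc
*Npas4*, chr19:4989972-4990221, minus strand: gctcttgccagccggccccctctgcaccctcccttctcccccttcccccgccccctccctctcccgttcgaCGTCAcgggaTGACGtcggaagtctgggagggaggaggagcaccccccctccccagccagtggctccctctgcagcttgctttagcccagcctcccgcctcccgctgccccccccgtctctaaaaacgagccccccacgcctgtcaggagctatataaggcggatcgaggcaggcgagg
*Egr4*, chr6:85513590-85513839, minus strand: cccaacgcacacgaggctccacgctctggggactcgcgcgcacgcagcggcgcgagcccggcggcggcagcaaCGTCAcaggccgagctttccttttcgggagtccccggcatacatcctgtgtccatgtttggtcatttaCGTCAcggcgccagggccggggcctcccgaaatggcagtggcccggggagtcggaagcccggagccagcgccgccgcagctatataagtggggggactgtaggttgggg

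A CRE core was found in at least 1 promoter entry of each of the 6 genes. The share was 17.8% over the 32851 promoter entries of the same length outside chromosome 18. *Egr2*, *Egr4*, *Fos* and *Npas4* each held 2 in the window shown, and *Fosb* and *Junb* held 1. The complete CRE (TGACGTCA, 1.55% of all entries) and the AP-1 site (TGANTCA, 6.75%) were in none of these windows. A CArG box was found in the *Egr2* window shown, from 72 to 63 bases before the start, and in 1.47% of all entries. *Egr2* had further promoter entries with other starts, and that at chr10:67535249-67535498 held neither a CArG box nor a CRE core. Bases beyond these 250 were not searched, so no gene is shown to lack a CArG box or another site. *Fos* held TATAAA from 33 to 28 bases before its start (12.4% of all entries), and *Fosb* held an Egr site (GCGNGGGCG, 4.7% of all entries) from 50 to 42 bases before its start. A match is a run of letters and was not tested as a binding site.

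The levels of the 10 genes spanned a wide range. Per exon length (FPKM, the CPM divided by the length of the merged exons in kilobases), *Arc* had the highest mean in 9 of the 10 groups, between 25.6 ± 7.22 (SD, n = 4) in SAPAP3 KO IP and 124 ± 20.9 in neuron IP. In Control IP *Junb* came first with 38.5 ± 9.64 FPKM, next to *Arc* with 33.3 ± 16.02. The group means lay between 16.3 and 46.7 FPKM for *Egr1* and between 10.8 and 33.6 for *Egr3*. *Fos* lay between 5.83 and 20.4 FPKM, while *Egr2*, *Fosb* and *Npas4* stayed under 8 FPKM in each group. *Fosl1*, which encodes the AP-1 subunit FRA-1, was lowest in each group, at 0.03 FPKM in bulk striatum and 1.498 ± 0.579 in Control IP.

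**Figure D1:**
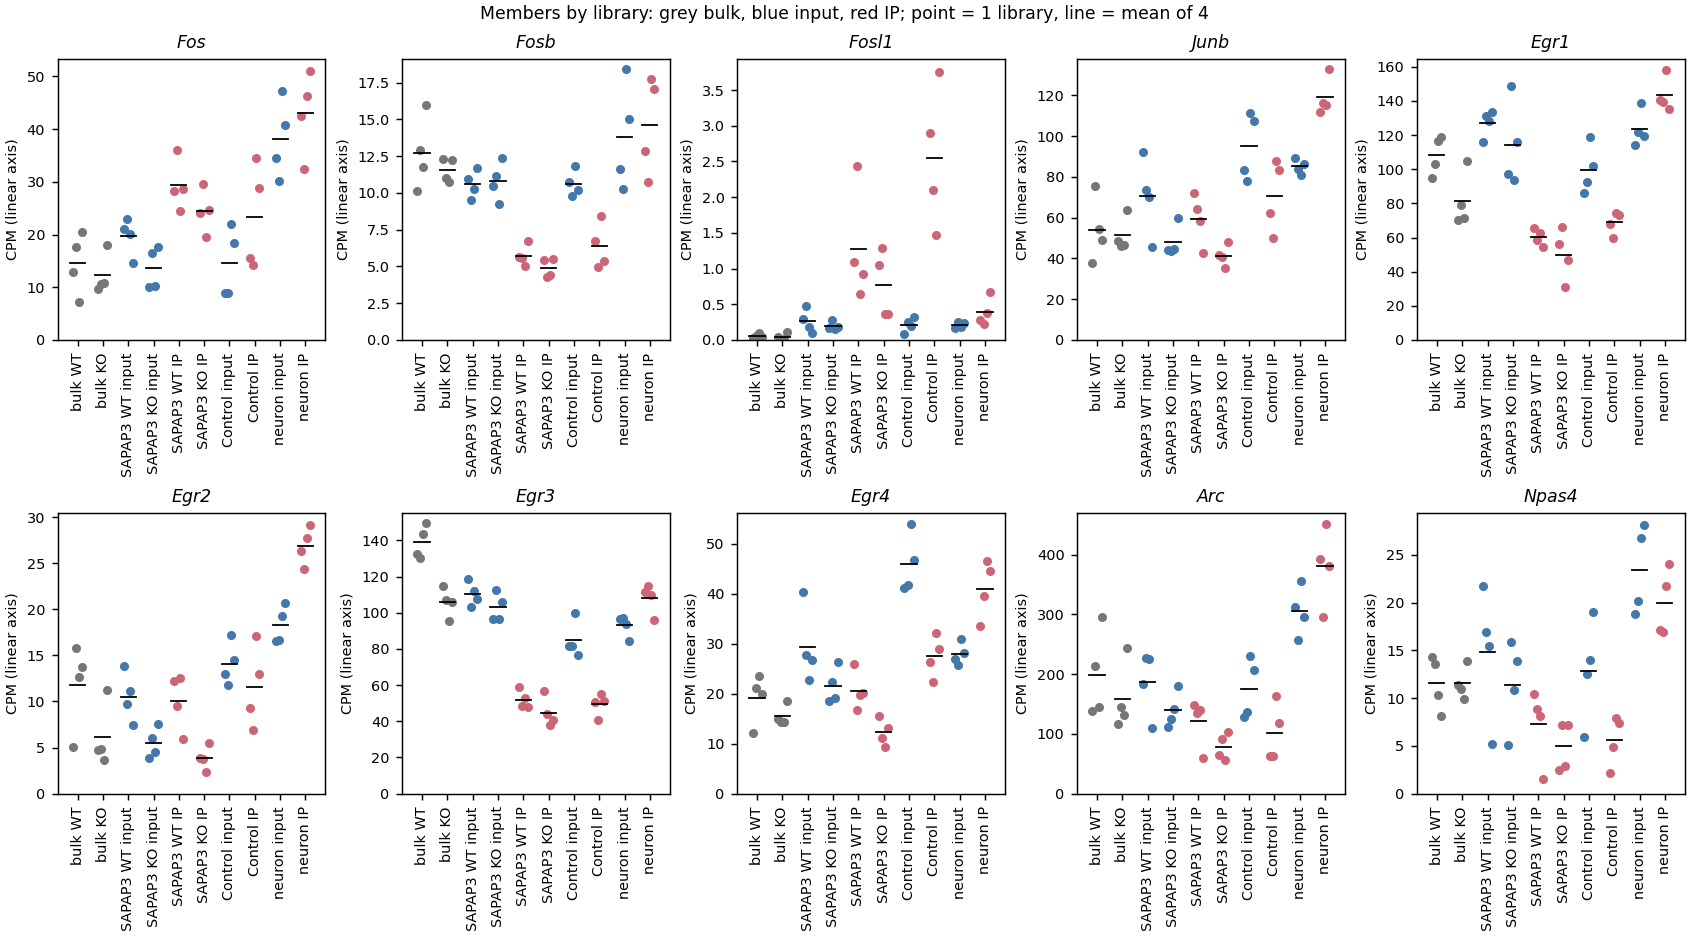
Level of each of the 10 genes in the 40 libraries, in CPM on a linear axis that starts at 0 and differs between genes. Grey points are bulk striatum, blue points input and red points IP, 1 point for each library, and the line is the mean of 4 libraries. Neuron IP has the highest mean for *Arc*, *Egr1*, *Egr2*, *Fos*, *Fosb* and *Junb*, whereas *Fosl1* is highest in Control IP.

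Across the 10 groups, neuron IP had the highest mean for 6 genes, *Egr1*, *Egr2*, *Fos*, *Fosb*, *Junb* and *Arc*. For *Egr1*, *Egr2* and *Junb* the 4 neuron IP libraries did not overlap with the next group. *Npas4* was highest in neuron input (23.4 ± 4.65 CPM), *Egr4* in Control input (45.9 ± 5.93 CPM), *Egr3* in bulk WT (139 ± 9.17 CPM) and *Fosl1* in Control IP (2.55 ± 0.987 CPM). SAPAP3 KO IP had the lowest mean of the 10 groups for each member but *Fos* and *Fosl1*. Most neighbours in these orders overlapped, and for *Egr4*, *Fos*, *Arc* and *Npas4* no neighbouring groups were separate. Levels of separate cohorts differ in age, strain and preparation as well as in cell type, which cannot be told apart.

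In the neuron cohort, RNA of 9 of the 10 genes was higher in IP than in input on average, and *Npas4* was the exception. For *Arc* the 4 inputs had 312, 256, 355 and 296 CPM and the 4 IP libraries 393, 296, 450.5 and 381 CPM in the same order. Each mouse had more *Arc* in its IP, but the groups overlapped, and the log2(FC) was 0.53 (SE 0.13). *Egr2*, known as Krox20 and for its part in the myelination of nerves, had 16.6, 16.6, 19.2 and 20.7 CPM in input and 26.3, 24.4, 27.7 and 29.2 CPM in IP. These groups did not overlap (log2(FC) 0.76, SE 0.08). *Egr4* (log2(FC) 0.76, SE 0.10) and *Junb* (log2(FC) 0.69, SE 0.05) were likewise above input in each neuron IP library. Groups with IP higher and no overlap were thus found for 3 of the 10, beside 16.7% of all genes tested. *Fos* showed a small difference. Its inputs had 34.6, 30.1, 47.2 and 40.7 CPM and its IP libraries 42.6, 32.4, 46.3 and 51.1 CPM, with a log2(FC) of 0.38 (SE 0.16). *Egr1* and *Egr3* both had a log2(FC) of 0.42 (SE 0.08 and 0.07), *Fosb* of 0.29 (SE 0.21) and *Npas4* of -0.03 (SE 0.15). *Fosl1* had the largest, 1.08 (SE 0.37), on 9 to 14 counts in input and 17 to 50 in IP. Mouse 2 had less *Fosl1* in its IP than in its input (-0.12 on the log2 CPM scale). The neuron markers moved by a median of 0.80 in the same libraries.

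In Control IP the mean of 8 of the 10 genes was lower than in input, with a log2(FC) from -0.07 for *Egr2* to -0.98 for *Npas4*. *Egr2* passed to the other side of 0 without Control input 3, Control IP 1 or Control IP 2, at 0.04 to 0.13. *Egr3*, best known for its need in muscle spindles, had 81.4, 81.9, 99.6 and 76.7 CPM in input and 50.9, 40.5, 55.0 and 51.1 CPM in IP. The groups did not overlap (log2(FC) -0.56, SE 0.10), and the same held for *Egr1* (-0.32, SE 0.10), *Egr4* (-0.52, SE 0.11) and *Fosb* (-0.51, SE 0.15). These are 4 of the 10 genes, beside 51.5% of all genes tested that were lower without overlap. *Arc* had 129, 136, 229 and 207 CPM in input and 62.1, 63.0, 164 and 118 CPM in IP. Its IP level was lower in each mouse, while the groups overlapped (log2(FC) -0.56, SE 0.30). *Npas4* had 5.91, 12.5, 14.03 and 19.03 CPM in input and 2.21, 4.84, 7.87 and 7.43 CPM in IP of the same mice (log2(FC) -0.98, SE 0.38). The neuron markers had a median of -0.83 in the same libraries, and their part in the result was not tested.

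*Fos* and *Fosl1* were the exceptions. *Fos* had 8.93, 8.84, 21.99 and 18.5 CPM in Control input and 15.7, 14.2, 34.6 and 28.8 CPM in IP of the same mice. Each mouse had more *Fos* RNA in its IP, by 0.64 to 0.80 on the log2 CPM scale, although mice 3 and 4 had far more in both fractions and the groups overlapped (log2(FC) 0.90, SE 0.35). *Fosl1* rested on few reads in input, with 2, 7, 6 and 8 counts (0.08, 0.25, 0.20 and 0.32 CPM), against 138, 97, 71 and 165 counts in IP (2.90, 2.10, 1.47 and 3.75 CPM). The groups did not overlap (log2(FC) 3.78, SE 0.40). Groups without overlap in this direction, whatever the size of the difference, were found for 25.7% of all genes tested. In GRCm38 the gene *Fosl1* (chr19:5447698-5455938, plus strand) shares 67.7% of its exon bases with *Ccdc85b* on the other strand. *Ccdc85b* had a log2(FC) of -0.63 in Control IP, opposite to *Fosl1*. The strand setting of the counting is not given in the sources used here, so reads of this pair may not be told apart. *Egr2* shares 4.0% of its exon bases with a predicted gene, and the other 8 overlap no annotated gene. Of those, *Arc* lies at chr15:74669081-74672570 (minus strand), *Junb* at chr8:84976909-84978748 (minus), *Fosb* at chr7:19302696-19310118 (minus) and *Egr3* at chr14:70077317-70082613 (plus).

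In the SAPAP3 IP, 7 of the 10 genes in WT and 8 in KO had a lower mean than in input. *Egr1*, *Egr3* and *Fosb* were lower than in input without overlap in both genotypes, and in KO also *Egr4* and *Arc* (3 and 5 of the 10, beside 41.0% and 45.4% of all genes tested). *Egr1*, the most studied of the Egr factors, had 116, 131, 128 and 134 CPM in SAPAP3 WT input and 65.5, 58.8, 62.8 and 54.7 CPM in IP (log2(FC) -0.90, SE 0.07). In KO mice *Egr1* had 97.3, 149, 93.8 and 116 CPM in input and 56.4, 66.0, 30.8 and 46.7 CPM in IP (log2(FC) -0.98, SE 0.21). *Fos* again stood above its input in each library. Its WT inputs had 20.99, 22.9, 20.1 and 14.6 CPM and its WT IP libraries 28.2, 36.0, 24.5 and 28.6 CPM (log2(FC) 0.75, SE 0.15). Its KO inputs had 10.02, 16.6, 10.3 and 17.6 CPM and its KO IP libraries 24.1, 29.6, 19.5 and 24.7 CPM (log2(FC) 1.06, SE 0.19). Thus *Fos* and *Fosb*, which encode closely related proteins, were on opposite sides of input in the Control, SAPAP3 WT and SAPAP3 KO cohorts (log2(FC) of *Fosb* -0.51, -0.71 and -0.94). *Fosl1* had a log2(FC) of 2.45 (SE 0.53) in WT and 2.19 (SE 0.51) in KO. *Fos* and *Fosl1* were thus higher in IP without overlap in both genotypes, beside 21.7% and 23.2% of all genes tested. *Arc* had a log2(FC) of -0.46 (SE 0.30) in WT and -0.62 (SE 0.19) in KO, and *Npas4* of -0.86 (SE 0.53) and -0.998 (SE 0.40). *Junb* was near 0 in both (-0.07 and -0.02). Oligodendrocyte markers moved with this comparison, 4 of 10 rising in WT and 5 of 10 in KO, with a summed level of 5826 to 6767 CPM in WT input, 7182 to 10522 in WT IP, 5972 to 6247 in KO input and 6732 to 9360 in KO IP. None of these 10 markers was at 0, and their part in the result was not tested.

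**Figure D2:**
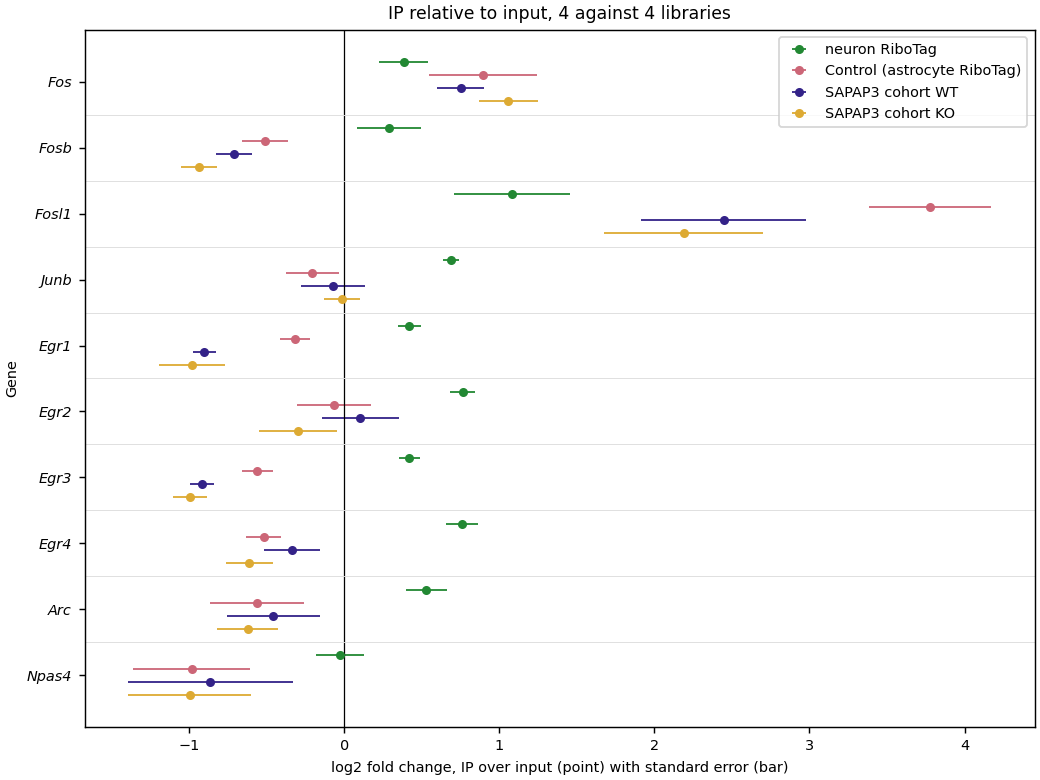
The log2 fold change of IP over input (x axis, 0 is no difference) for each gene in the 4 cohorts, as a point with its standard error, from 4 against 4 libraries. The neuron cohort lies right of 0 for each gene but *Npas4*, the other 3 cohorts lie left of 0 for *Fosb*, *Egr1*, *Egr3*, *Egr4*, *Arc* and *Npas4*, and *Fos* and *Fosl1* lie right of 0 in all 4.

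Scaling matters for values near 0. Without TMM scaling, the log2(FC) of all genes had a median between -0.25 and -0.20 in the 4 comparisons of IP with input, and the members moved with it. *Egr1* in neuron IP went from 0.42 to 0.21 and *Egr3* from 0.42 to 0.21, still above 0.

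Other genes of the activity response that are not among the 10, a list of 61 (22 transcription factors, 26 feedback regulators and 13 effectors), were tested in the fit over all genes with edgeR. This list too was drawn up with earlier results of these data known. For IP against input a call asked for an adjusted p under 0.05 together with a log2(FC) outside -1 to 1, and rose and fell are used of called genes. In Control IP 10 of the 61 rose and 4 fell, which is 23.0% called, beside 26.9% of the 15476 genes tested. Those that rose included *Cyr61*, a matricellular growth factor (log2(FC) 2.09, SE 0.13, adjusted p 4.485e-08), *Gem*, a small GTPase (2.08, SE 0.10, adjusted p 5.59e-09), the stress-induced factor *Atf3* (1.89, SE 0.27, adjusted p 5.587e-05) and *Jun*, the partner of FOS in AP-1 (1.22, SE 0.08, adjusted p 5.018e-08). Those that fell were *Klf2*, a factor abundant in endothelium (-2.50), *Dusp2*, a MAP kinase phosphatase (-2.27), *Rgs2* (-1.05) and *Homer1*, a postsynaptic scaffold (-1.02). *Maff*, a small MAF factor, rose by 1.54 (SE 0.35). *Bdnf* (1.64), *Spry4* (1.47), *Gadd45g* (1.35), *Pcsk1* (1.10) and *Trib1* (1.08) rose as well. The list's median was 0.16, beside -0.02 over all genes tested.

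*Jun* also rose in SAPAP3 WT IP (log2(FC) 1.27, SE 0.15, adjusted p 6.771e-05) and KO IP (1.15, SE 0.09, adjusted p 1.378e-06), and in neuron IP it was at -0.01 (SE 0.06). In SAPAP3 WT 6 of the 61 rose and 6 fell (19.7%, beside 23.0% of 15587 genes), and in KO 7 rose and 7 fell (23.0%, beside 23.8% of 15583 genes). None of these shares was above that of all genes. *Cyr61* (2.27 and 2.40), *Maff* (1.70 and 1.85), *Gem* (1.56 and 1.67), *Gadd45g* (1.41 and 1.43) and *Atf3* (1.26 and 1.36) rose in both genotypes. *Nrn1*, a neuritin that neurons secrete (-2.64 and -2.31), *Klf2* (-1.94 and -1.98), *Dusp2* (-1.94 and -1.37) and *Homer1* (-1.13 and -1.09) fell in both. In KO *Nr4a2* (-1.88) and *Bdnf* (-1.48) fell too, although *Bdnf* had risen in Control IP. In the neuron cohort none of the 61 rose past the limits and 3 fell, *Klf4* (-2.63), *Klf2* (-2.10) and *Zfp36* (-1.88), beside 16.3% of the 16198 genes tested. Endothelial and microglial markers had medians of -3.60 and -4.55 in the same comparison, and their part in the result was not tested. *Nr4a1*, an orphan nuclear receptor gene induced with *Fos*, had a log2(FC) of 0.47 (SE 0.08) in neuron IP and of -0.32 (SE 0.18) in Control IP.

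Of 20 genes that act upstream of the members, 2 rose and 3 fell in Control IP, a share of 25% beside the 26.9% of all genes. *Crtc3*, a coactivator of CREB (1.07, SE 0.04), and *Arnt2*, the partner of NPAS4 (1.00, SE 0.03), rose, while *Srf* (-1.13, SE 0.04) and its cofactors *Elk1* (-1.45, SE 0.05) and *Elk3* (-1.02, SE 0.12) fell. In the SAPAP3 IP *Elk1* (-1.27 in WT and -1.21 in KO) and *Mef2c* (-1.28 and -1.31), a factor of neurons, fell in both genotypes and *Elk3* in WT (-1.30). In neuron IP *Elk3* alone was called (-1.98).

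Knockout of SAPAP3 was compared with WT in 3 materials. On average 9 of the 9 members tested in bulk striatum, 8 of 9 in input and 10 of 10 in IP were lower in KO, and 7 to 9, 8 to 9 and 10 with 1 library left out. Their median log2(FC) was -0.32 in bulk, -0.39 in input and -0.52 in IP, where the median over all genes tested was 0.00 in bulk and input and 0.01 in IP. Input and IP come from the same mice, so these are not separate observations. *Fosl1* was too low to be tested in bulk and input. Cell type markers shifted in the same comparisons. The neuron markers had medians of -0.12, -0.25 and -0.19 in bulk, input and IP, the endothelial markers of 0.17, -0.32 and 0.05, and the microglial markers of -0.05, -0.26 and 0.69, with none of these 30 markers called. Their part in the result was not tested. The groups are small and the mice vary, and the values below are descriptions.

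*Egr2* differed most. In bulk striatum it had 5.11, 15.8, 12.7 and 13.8 CPM in WT and 4.71, 4.82, 3.61 and 11.3 CPM in KO. The groups overlapped through 1 low WT and 1 high KO library (log2(FC) -0.98, SE 0.41). In input *Egr2* had 13.9, 9.71, 11.1 and 7.41 CPM in WT and 3.92, 6.04, 4.47 and 7.52 CPM in KO. One KO library reached the lowest WT library (log2(FC) -0.91, SE 0.23). In IP it had 12.2, 9.50, 12.5 and 5.97 CPM in WT and 3.84, 3.7995, 2.37 and 5.50 CPM in KO, without overlap (log2(FC) -1.35, SE 0.27). With each library left out in turn, *Egr2* stayed between -1.56 and -0.77 in the 3 materials, and in bulk it was -1.44 without KO library 4.

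The other Egr genes were lower by less. *Egr4* had 25.8, 16.8, 19.7 and 20.1 CPM in WT IP and 15.4, 11.2, 9.27 and 13.1 CPM in KO IP, without overlap (log2(FC) -0.73, SE 0.16). Its log2(FC) was -0.41 (SE 0.16) in input and -0.32 (SE 0.18) in bulk. *Egr3* was separate in bulk alone, with 133, 130.3, 144 and 150 CPM in WT and 115, 107, 95.3 and 106 CPM in KO (log2(FC) -0.42, SE 0.07), and was at -0.07 in input and -0.20 in IP. *Egr1* was at -0.44 (SE 0.13), -0.13 (SE 0.13) and -0.25 (SE 0.19). Groups that did not overlap, with KO lower, were thus found for 1 member in bulk and 2 in IP and for none in input, beside 0.743%, 0.882% and 2.62% of all genes tested.

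Among the AP-1 genes, *Junb* had 92.3, 73.6, 70.2 and 45.6 CPM in WT input and 44.1, 43.9, 44.8 and 60.0 CPM in KO input (log2(FC) -0.51, SE 0.19). Of the 4 KO libraries 3 lay below each WT library. In IP *Junb* was also at -0.51 (SE 0.14), and in bulk at -0.10 (SE 0.18). *Fos* was at -0.27 (SE 0.30) in bulk, -0.50 (SE 0.20) in input and -0.24 (SE 0.14) in IP. *Fosb* was near 0, at -0.16 (SE 0.13), 0.06 (SE 0.10) and -0.21 (SE 0.13).

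*Arc* had 138, 213, 145 and 296 CPM in bulk WT and 116, 145, 131 and 243 CPM in bulk KO (log2(FC) -0.34, SE 0.28). It was at -0.39 (SE 0.22) in input and -0.60 (SE 0.28) in IP, and in each material the genotypes overlapped. *Npas4* was at -0.03 (SE 0.18), -0.35 (SE 0.41) and -0.53 (SE 0.52), with the largest SE of the members tested in input and IP. With *Xist* as a covariate, *Npas4* in IP changed to 0.33 and *Arc* in IP to -0.24. The part of sex was not tested further.

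**Figure D3:**
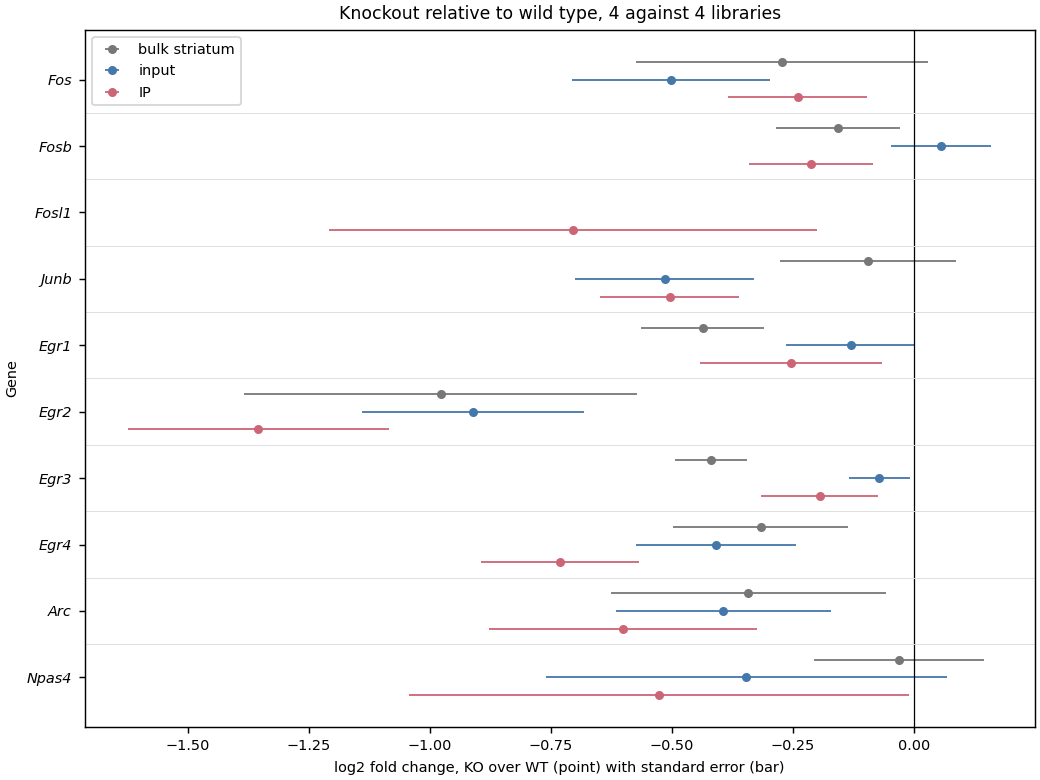
The log2 fold change of KO over WT (x axis, 0 is no difference) for each gene in bulk striatum, input and IP, as a point with its standard error, from 4 against 4 libraries. *Egr2* lies farthest left in all 3 materials, and *Fosb* in input is the 1 point right of 0.

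Of the 61 other activity genes none was called between the genotypes in bulk, input or IP with edgeR at an adjusted p under 0.05. An unadjusted p under 0.05 was found for 5, 7 and 2 of them. Higher and lower in KO were 0 and 5 in bulk, 4 and 3 in input, and 0 and 2 in IP. The share of all genes at that unadjusted limit is not given here, so these counts stand without a background. Of all genes, 0.00% of 16020 were called in bulk, 0.00641% of 15591 in input and 0.0263% of 15198 in IP. *Dlgap3* itself was not called in bulk (log2(FC) -1.14, SE 0.14, adjusted p 0.318). It was called in input (-1.19, SE 0.10, adjusted p 0.00698) and in IP (-1.40, SE 0.17, adjusted p 0.0283). The lack of calls therefore does not show a lack of change. DESeq2 and limma-voom called none of the 61 either. Over all genes DESeq2 called 12 higher and 5 lower in bulk, 3 and 5 in input, and 2 and 6 in IP. The median log2(FC) of the 61 was -0.06 in bulk, 0.00 in input and 0.03 in IP. *Nr4a1* was the lowest of them in input (-0.52, SE 0.19, adjusted p 0.735) and in IP (-0.66, SE 0.20, adjusted p 0.999). *Homer1*, *Jun* and *Dusp1* were at -0.39, -0.16 and -0.10 in bulk, with adjusted p-values of 0.984, 0.990 and 0.990.

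Input of the SAPAP3 cohort and bulk striatum of the same genotype were set side by side too. The virus, the strain label, the cohort and the preparation differ together here and cannot be told apart. Of the 9 members with enough reads for a fit, 4 in WT and 6 in KO had a lower mean in input than in bulk, and in KO only 2 were lower without bulk KO library 4. *Egr3* had 118, 103, 112 and 108 CPM in WT input and 133, 130.3, 144 and 150 CPM in WT bulk, without overlap (log2(FC) -0.39, SE 0.07). In KO its groups overlapped. *Egr4* had 40.2, 27.8, 22.7 and 26.8 CPM in WT input and 12.02, 21.2, 23.5 and 19.9 CPM in WT bulk (log2(FC) 0.56). In KO *Egr4* had 18.5, 22.4, 19.2 and 26.4 CPM in input and 15.0, 14.4, 14.4 and 18.6 CPM in bulk (log2(FC) 0.46, SE 0.11). In both genotypes 1 pair of libraries made the *Egr4* groups overlap. *Egr1* was higher in KO input by a log2(FC) of 0.47 (SE 0.15), with overlap. *Fosl1* was above bulk in each input library of both genotypes, at 0.10 to 0.47 CPM against 0.03 to 0.09 in WT and at 0.15 to 0.27 CPM against 0 to 0.11 in KO, on 3 to 13 counts against 0 to 7.

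The other activity genes were tested between input and bulk at an adjusted p under 0.05. In WT 8 of the 61 rose and 7 fell (24.6%, beside 12.3% of 15865 genes), and in KO 11 rose and 11 fell (36.1%, beside 23.8% of 15947 genes). With 1 library left out 6 to 18 were called in WT, with 9, 6 and 7 without SAPAP3 WT input 1, 2 and 4. Calls over all genes dropped as well, from 1428 higher and 520 lower in the full WT data. They were 1070 and 242 of 16206 genes without input 1 and 946 and 122 of 16198 without input 2. Without input 4 they were 1035 and 232 of 16206. *Socs3*, a feedback inhibitor of cytokine signalling (2.63, SE 0.41, adjusted p 0.00362 in WT, and 2.14, SE 0.26, adjusted p 0.000141 in KO), and *Atf3* (1.92 and 1.68) rose most. *Maff* (1.17 and 0.67), *Zfp36* (1.22 and 0.99), *Pim1* (0.94 and 1.06) and *Cebpb* (0.81 and 0.92) also rose in both. Of the 13 effectors 4 fell in WT and 7 in KO, among them *Vgf* (-0.56 and -0.31) and *Inhba* (-0.81 and -0.36). Of the 10 microglial markers 9 rose in both genotypes, with medians of 1.51 and 1.25. Of the 10 astrocyte markers 4 rose in WT and 6 in KO, with medians of 0.31 and 0.38. They ran from *Gjb6* (-0.48 and -0.29) to *Gfap* (1.98 and 2.16). Of the 10 neuron markers 0 were called in WT and 6 fell in KO, with medians of -0.18 and -0.30. The part of these markers in the result was not tested. In bulk and input RNA, fewer cells of a type and less RNA per cell cannot be told apart.

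The members also varied from mouse to mouse within a group. Their median SD over 4 libraries was between 0.16 and 0.47 on the log2 CPM scale, where that of all genes of at least 1 CPM was between 0.08 and 0.15. Among the members of at least 1 CPM in a group, *Npas4* had the largest SD in 6 of the 10 groups. It differed by up to 6.64 times between the lowest and the highest library (1.57 and 10.4 CPM in SAPAP3 WT IP). *Egr3*, in contrast, varied by 1.15 to 1.499 times within a group.

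Over the 24 libraries of whole striatum (inputs and bulk, 1 for each mouse), log2 CPM were set against the mean of the group, and 35 of the 36 pairs among the 9 members with at least 1 CPM correlated positively. Pearson's r had a median of 0.44 and ran from -0.06 to 0.82, the highest being *Fos* with *Arc*. These values are descriptions, as the points of a library share its depth and dissection. *Arc* (r 0.79), *Egr2* (0.77), *Fos* (0.75) and *Junb* (0.72) followed the mean of the other members most closely, and *Egr3* least (0.24). The mice with high values were Control 3 (9 of 9 members above the mean of the group), SAPAP3 KO 4 (9 of 9), bulk KO 4 (8 of 9) and neuron 3 (8 of 9). SAPAP3 KO 1 and bulk KO 3 had none above it.

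**Figure D4:**
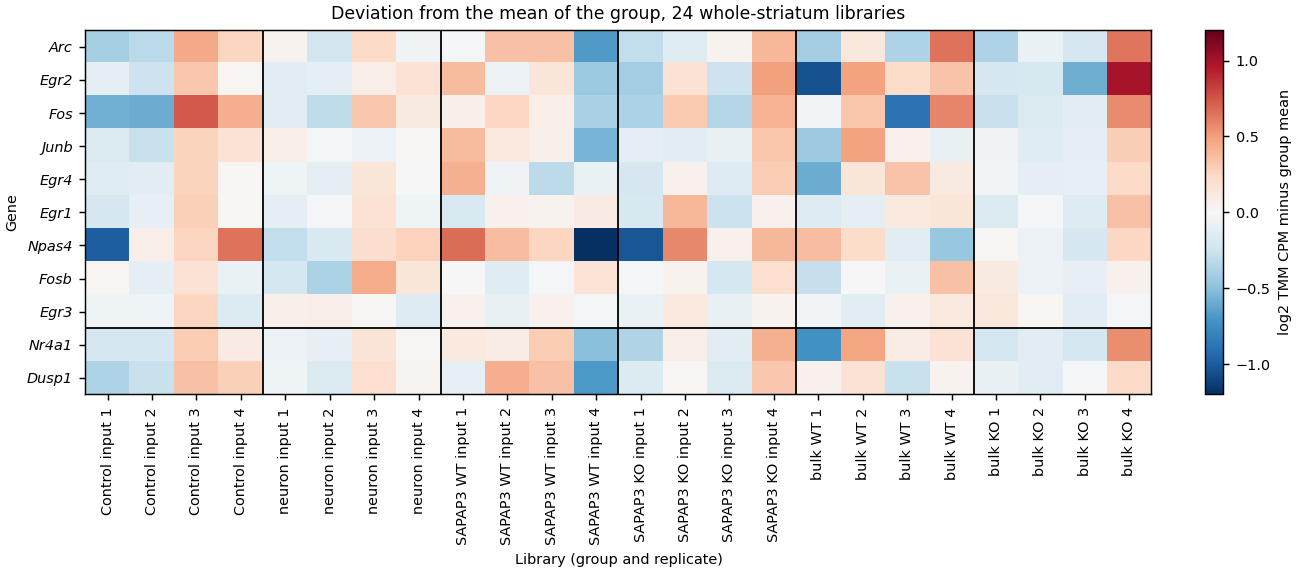
Deviation of each library from the mean of its group (colour, log2 TMM-scaled CPM, red above and blue below) for 9 members and, below the line, *Nr4a1* and *Dusp1*, in the 24 whole-striatum libraries. Columns such as Control input 3 and bulk KO 4 are red, and SAPAP3 KO input 1 is blue, for nearly each gene.

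Of all other genes, *Nr4a1* was most like the mean of the members (r 0.90 over 24 libraries), and *Dusp1*, an early MAP kinase phosphatase gene (0.76), and *Sik1*, a salt-inducible kinase gene (0.70), were among the 10 most alike. The other 7 were *Zfp873* (0.78), *A230009B12Rik* (0.77), *Shisa2* (0.75), *Kdm1b* (0.72), *Rpia* (0.71), *Gpr3* (0.70) and *Slc16a12* (0.70). Of the 61 other activity genes 9 had an r of at least 0.5, beside 1.60% of all genes outside the members, and their median was 0.24 beside -0.02. *Jun* (-0.01), *Atf3* (0.15), *Bdnf* (-0.22), *Nr4a2* (-0.26) and *Myc* (-0.27) did not follow the members.

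Input and IP of the same mouse varied together. Over 16 mice, deviations from the mean of the group had a Pearson's r between input and IP of 0.94 for *Npas4* (Spearman's rho 0.93), 0.88 for *Junb* (0.83), 0.87 for *Arc* (0.81), 0.85 for *Fos* (0.84), 0.83 for *Fosb* (0.77) and 0.82 for *Egr2* (0.87). Over all 14008 genes the median r was 0.40. Without the 2 mice farthest from the median in input, these 6 genes stayed between 0.73 and 0.91. *Egr1* (r 0.61, rho 0.33), *Egr4* (0.51, 0.41) and *Egr3* (0.36, 0.37) were closer to other genes, and *Egr1* dropped to 0.37 without 2 mice. The 2 fractions share an animal and a lysate, and no p is given.

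**Figure D5:**
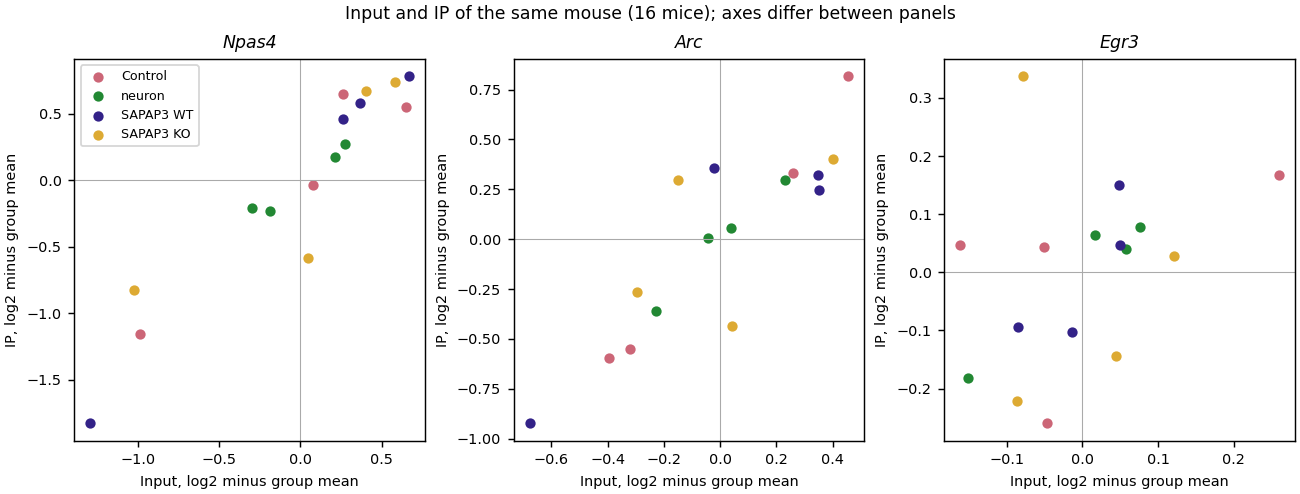
Deviation from the mean of the group in input (x axis) and in IP (y axis), both in log2 CPM, for *Npas4*, *Arc* and *Egr3*, 1 point for each of 16 mice, coloured by cohort. The points of *Npas4* and *Arc* rise along the diagonal (r 0.94 and 0.87), and those of *Egr3* scatter over a far smaller range (r 0.36). The axes differ between panels.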

How the data were processed

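Striatal RNA was measured by RNA-seq in 40 libraries. The authors aligned the reads with STAR to mm10, counted them per gene with HTSeq (both named in the submitters' processing notes, versions not given in the sources used here) and deposited a table of raw counts, with a row for each gene symbol, which were not normalized. The strand setting, the annotation and the handling of reads with several alignments are not given in the sources used here. The labels name a stranded kit with ribosomal depletion and the study's methods another kit. Groups came from the labels. The Control libraries were taken as the astrocyte RiboTag because the study's supplement names them so.

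CPM were computed with library totals, and FPKM with merged curated exons of RefSeq GRCm38.p6 (23873 symbols, 99.22%). Differences were tested in R 4.3.3 with edgeR 4.0.16 (glmQLFTest after filterByExpr and TMM), fitted on the libraries of the pair at hand, with p-values adjusted by Benjamini-Hochberg over all genes tested. SE is the log2(FC) divided by the root of F. Calls needed an adjusted p under 0.05, and for IP against input also a log2(FC) above 1 or below -1. A planned test of the members between input and bulk is left out, since their levels in these groups had a part in their choice. Replicates are separate mice by the labels. In the Control and SAPAP3 cohorts the animal pairs IP with input, and in the neuron cohort the number in the title does, as the labels there give different animal numbers. Over 11753 genes of at least 5 CPM, same-mouse deviations of IP and input correlated by 0.24 to 0.80. Motifs were searched on both strands. Likeness to the members was computed over genes of at least 1 CPM on log2(CPM + 0.1) after TMM scaling.

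The 10 genes, the lists and the tests were chosen with earlier results of these data known. Named outside the 10 are called genes of the lists, mostly those with a large log2(FC), though not all of these are named. *Nr4a1*, *Jun*, *Homer1*, *Dusp1* and the 10 genes most like the members are named too. Further genes were picked after their values were seen (*Maff*, *Gadd45g*, *Rgs2*, *Nrn1*, *Pim1*, *Cebpb*, *Bdnf*, *Trib1*, *Nr4a2* and *Myc*). Alternatives were limma-voom (limma 3.58.1), DESeq2 1.42.0, library totals, no filter, a shared fit, other fold limits, *Xist* as a covariate, the mouse as a block and leaving out each library. The scripts were tested on simulated data. Python 3.11.15, SciPy 1.17.1 and matplotlib 3.10.9 were used.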

Additional observations from a re-analysis of the deposited data

Results flagged for a closer look

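In groups of 4 libraries, 6 of the 100 combinations of a gene and a group held 1 library far from the other 3, and chance alone flags about 1 in 20. Of the 6, 4 were bulk KO library 4, which was high in *Egr2* (11.3 CPM, others 3.61 to 4.82), *Egr4* (18.6 CPM, others 14.4 to 15.0), *Fos* (18.1 CPM, others 9.77 to 10.8) and *Junb* (63.9 CPM, others 46.2 to 48.8). SAPAP3 KO input 4 was high in *Junb* (60.0 CPM, others 43.9 to 44.8). SAPAP3 WT IP 4 was low in *Arc* (59.1 CPM, others 134 to 149), and the input of the same mouse had the lowest *Arc* level of its group, 111 CPM.

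*Egr4* went opposite ways in 2 kinds of IP. Each neuron IP library was above each neuron input library (log2(FC) 0.76), while each Control IP library was below each Control input library (-0.52) and each SAPAP3 KO IP library below its inputs (-0.61). The difference between the cohorts was not tested.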

How the results depend on the processing

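Of 526 log2(FC) values of the members under other settings, 508 kept their sign and moved by less than the spread between replicates, 14 moved by more (library totals without TMM) and 4 took the other sign. These 4 were *Egr2* in Control IP (0.0020 in 1 fit over all 10 groups) and in SAPAP3 WT IP (-0.07 without TMM), *Junb* in SAPAP3 KO IP (0.01 without a filter) and *Npas4* in KO against WT IP (0.33 with *Xist*). Leaving out 1 library changed the sign of 27 of 688 values, all between -0.20 and 0.20 in the full data.

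Without the fold limit 42, 36, 34 and 43 of the 61 other activity genes were called in Control, neuron, SAPAP3 WT and SAPAP3 KO IP, beside 80.4%, 71.3%, 67.3% and 71.9% of all genes. With a log2 fold limit of 1 for input against bulk, 4 (WT) and 3 (KO) of the 61 were called, beside 5.16% and 5.15% of all genes. A single fit over all 10 groups called 2 of the 61 in KO against WT bulk (0.108% of all genes) and 24 (WT) and 13 (KO) in input against bulk (26.6% and 19.5%). The cause was not tested.

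With 1 library left out, 6 to 18 of the 61 were called in WT input against bulk, and the calls over all genes changed as well. Members below 0 were 0 to 1 in neuron IP and 2 to 7 in KO input against bulk, with 2 without bulk KO 4.

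With the mouse as a replicate block, 14, 3, 14 and 14 of the 61 were called in the 4 comparisons of IP with input, beside 27.0%, 16.3%, 23.3% and 23.9% of all genes. The numbers of KO and WT mice follow accession order and pair nothing, and that block called 0. *Fosl1* rests on few counts outside Control IP.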
